A study of Mus musculus with 7 samples.

Results

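The 8 genes described here encode proteins that mark dying cells for removal or take them up: the bridging protein Mfge8, the chaperone clusterin (Clu), the ligands Gas6 and Pros1, their receptors Axl, Mertk and Tyro3, and the endocytic receptor Lrp1. They were chosen by symbol, and all 8 were found among the 21176 genes of the deposited table. RNA was sequenced from follicular dendritic cells (FDCs), the stromal cells that display antigen to B cells in lymphoid follicles. Per the labels, the cells were sorted from popliteal lymph nodes of male mice aged 8 to 12 weeks that had not been immunized. There were 4 wild-type (WT) samples and 3 samples labelled as a knockout of Ngfr, the gene of the p75 neurotrophin receptor (Ngfr KO), each pooled from the nodes of several animals. The labels name the genotype but not the allele or the strain, and they give no treatment.

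Dying cells expose phosphatidylserine on their surface. Mfge8 binds that lipid with its C-terminal domains and αv integrins with an RGD motif, and so links the dying cell to a phagocyte. Gas6 and Pros1 do the same for the TAM receptor tyrosine kinases Tyro3, Axl and Mertk. In germinal centres many B cells die, and tingible body macrophages clear them with the help of Mfge8, which FDCs are known to make. Clusterin is a secreted chaperone that binds cell debris and misfolded protein, and FDCs are known as a rich source of it.

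Values are counts scaled by TMM (trimmed mean of M values) and not divided by gene length. Libraries held between 17244925 and 18873542 reads in WT and between 20741770 and 21538400 in Ngfr KO, so every Ngfr KO library was the deeper. The targeted gene Ngfr was at 0.378, 0.678, 1.30 and 1.14 in WT replicates 1 to 4 and at 0.305, 0.353 and 0.184 in Ngfr KO replicates 1 to 3, where 84, 104 and 46 of its reads were left. Ngfr KO replicate 2 was thus nearly level with WT replicate 1. The fall was called by limma with low genes added (adjusted p = 0.0427) but not by edgeR on recovered reads (adjusted p = 0.0574). A gene total cannot tell which exons the remaining reads cover, and the genotype is taken from the labels. FDC markers were present in every sample, which fits the label. Of the 16 FDC markers, 15 were called higher in Ngfr KO, against 18.3% of all tested genes. The marker sets were chosen with earlier results of these data known. The summed value of the FDC markers was between 1130 and 3460 for WT and between 3950 and 6800 for Ngfr KO. Most of that sum was the chemokine gene Cxcl13, the 1 marker not called (limma adjusted p = 0.180, groups overlapping); without it the sums were 271 to 608 for WT samples and 1390 to 1600 for those of Ngfr KO. Of 14 endothelial markers, 13 were tested and all 13 were called lower, with sums between 128 and 175 for WT and between 35 and 56.7 for Ngfr KO. WT replicate 1 stood apart, with the lowest FDC sum (1130, against 2420 to 3460 in the other WT samples) and the highest endothelial sum (175). In sorted bulk samples, fewer cells of a type and less RNA per cell cannot be told apart. The samples were treated as unpaired, and fits with a marker score as a covariate are given beside the genes.

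**Figure D1:**
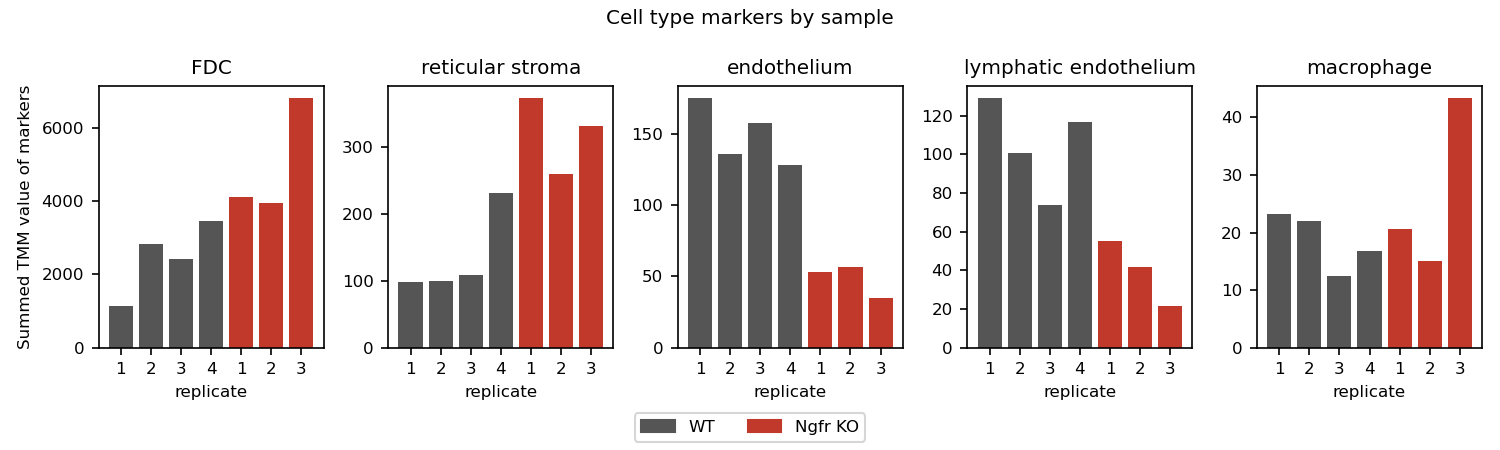
Summed TMM-normalised values of marker genes (vertical axes) in each WT (grey) and Ngfr KO (red) replicate (horizontal axes), for 5 cell types; each bar is 1 sample. FDC sums are at 3950 or above in the 3 Ngfr KO samples and at 3460 or below in the WT samples. Reticular stroma sums are 259 or more in Ngfr KO and 231 or less in WT. Dcn alone makes up 248, 151 and 195 of these sums in Ngfr KO replicates 1 to 3. Of 9 tested reticular markers, limma called 4 higher and 0 lower, against 18.3% and 15.8% of all tested genes. Endothelial sums are 128 or more in WT and 56.7 or less in Ngfr KO. Ngfr KO replicate 3 has the highest macrophage sum (43.3), of which Lyz2 makes up 28.1.

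Of the 8 genes, 5 passed the filter on low values (3 or more samples with a value of 1 or above), and limma called all 5 at an adjusted p-value under 0.05. In this comparison 34.2% of all tested genes were called, 18.3% higher and 15.8% lower in Ngfr KO. Mfge8, Clu and Axl rose, whereas Gas6 and Pros1 fell. Mertk, Tyro3 and Lrp1 stayed below a value of 1 in every sample and were tested in the same fit with these low genes added. Mertk fell there, and no change was called in Tyro3 or Lrp1. In 4 of the 5 genes that passed the filter the groups did not overlap (Mfge8 and Clu higher, Gas6 and Pros1 lower), against 40.9% of all tested genes (22.6% higher, 18.3% lower). With Mertk, 5 of all 8 genes had groups apart, against 25.6% of all genes in the table. The edgeR test on recovered reads called Mfge8, Clu and Gas6, in a comparison with 15.2% of its tested genes called, 8.67% higher and 6.55% lower. The counting is not stated to use strand, so reads of a gene and of an antisense partner cannot be told apart.

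Mfge8 showed the largest change of the 8 genes on the log2(value + 1) scale. By edgeR on recovered reads the estimates of Gas6 (-2.53) and Mertk (-2.94, not called) were larger in size than that of Mfge8 (2.39). The Mfge8 gene (GRCm38, GENCODE M21: chromosome 7, 79133768 to 79149060, minus strand) encodes the bridging protein named after milk fat globules. Its value was 70.1, 235.5, 410.2 and 450.3 in WT replicates 1 to 4 and 1172, 2009 and 1179 in Ngfr KO replicates 1 to 3. Every Ngfr KO sample lay above every WT sample, WT replicate 1 was the lowest WT sample, and Ngfr KO replicate 2 was well above the other Ngfr KO samples. Means were 292 ± 175 (SD, n = 4) and 1453 ± 481 (SD, n = 3), a 4.98-fold difference. The log2 change was 2.57 (SE 0.54, 95% interval 1.39 to 3.75, limma adjusted p = 0.00446). Without WT replicate 1 the log2 change was 1.995 (limma adjusted p = 0.00372). The gene was covered by 18009 to 118061 reads in WT, so read number does not limit its precision, but the call was lost without a filter on low genes (limma adjusted p = 0.0649).

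The stretch around the annotated start of Mfge8 is shown beside that of Gas6, since these were the members of the bridging group with the largest rise and the largest fall. Both sequences come from RefSeq (GRCm38.p6) and run from 250 bases before to 50 bases after the start, 5′ to 3′ on the minus strand. Mfge8 is at chr7:79149011-79149310 and Gas6 at chr8:13494486-13494785. Capitals mark GC boxes (GGGCGG on either strand).
Mfge8: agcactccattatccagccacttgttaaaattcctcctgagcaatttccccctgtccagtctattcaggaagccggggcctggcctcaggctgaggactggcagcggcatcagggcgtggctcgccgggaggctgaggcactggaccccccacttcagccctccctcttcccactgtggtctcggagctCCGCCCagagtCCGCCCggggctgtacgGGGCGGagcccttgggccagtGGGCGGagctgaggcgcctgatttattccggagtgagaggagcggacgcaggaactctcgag
Gas6: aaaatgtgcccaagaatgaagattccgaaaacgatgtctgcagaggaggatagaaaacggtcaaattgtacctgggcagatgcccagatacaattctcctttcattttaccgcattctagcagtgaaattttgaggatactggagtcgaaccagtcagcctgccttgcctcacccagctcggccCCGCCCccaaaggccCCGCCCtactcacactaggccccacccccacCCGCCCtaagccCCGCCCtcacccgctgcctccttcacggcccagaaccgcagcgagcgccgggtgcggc

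Both windows held 4 GC boxes, a motif present in 35.7% of the 32851 promoter windows of this length. GC content was 64.3% for Mfge8 and 58.3% for Gas6. Neither window matched TATAAA, which 13.6% of all windows hold, and both held 1 E-box (CANNTG), which 72.3% hold. On either strand, neither held an AP-1 site (TGANTCA, 7.81% of windows), a CRE (TGACGTCA, 1.79%), a STAT site (TTCNNNGAA, 8.30%), a κB site (4.51%) or a CArG box (1.63%). The windows of genes that changed in opposite directions thus carried the same motifs of this set. RefSeq windows were matched for 7 of the 8 genes, and a GC box was present in all 7.

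Per kb of exon, Clu was the most abundant of the 8 genes in every sample. The gene (chromosome 14, 65968483 to 65981547, plus strand) encodes the secreted chaperone clusterin. Its value was 668.9, 995.1, 1489 and 1334 in WT replicates 1 to 4 and 2954, 3191 and 2829 in Ngfr KO replicates 1 to 3. The Ngfr KO samples were close together and all above the highest WT sample, and WT replicate 1 was again the lowest. Means were 1122 ± 366 (SD, n = 4) and 2992 ± 184 (SD, n = 3), a 2.67-fold difference, with a log2 change of 1.48 (SE 0.36, 95% interval 0.69 to 2.26, limma adjusted p = 0.00914). Without WT replicate 1 it was 1.25 (limma adjusted p = 0.0322). Without a filter on low genes Clu was not called (limma adjusted p = 0.358), whereas edgeR on recovered reads gave a log2 change of 1.49 and an adjusted p of 0.00840.

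**Figure D2:**
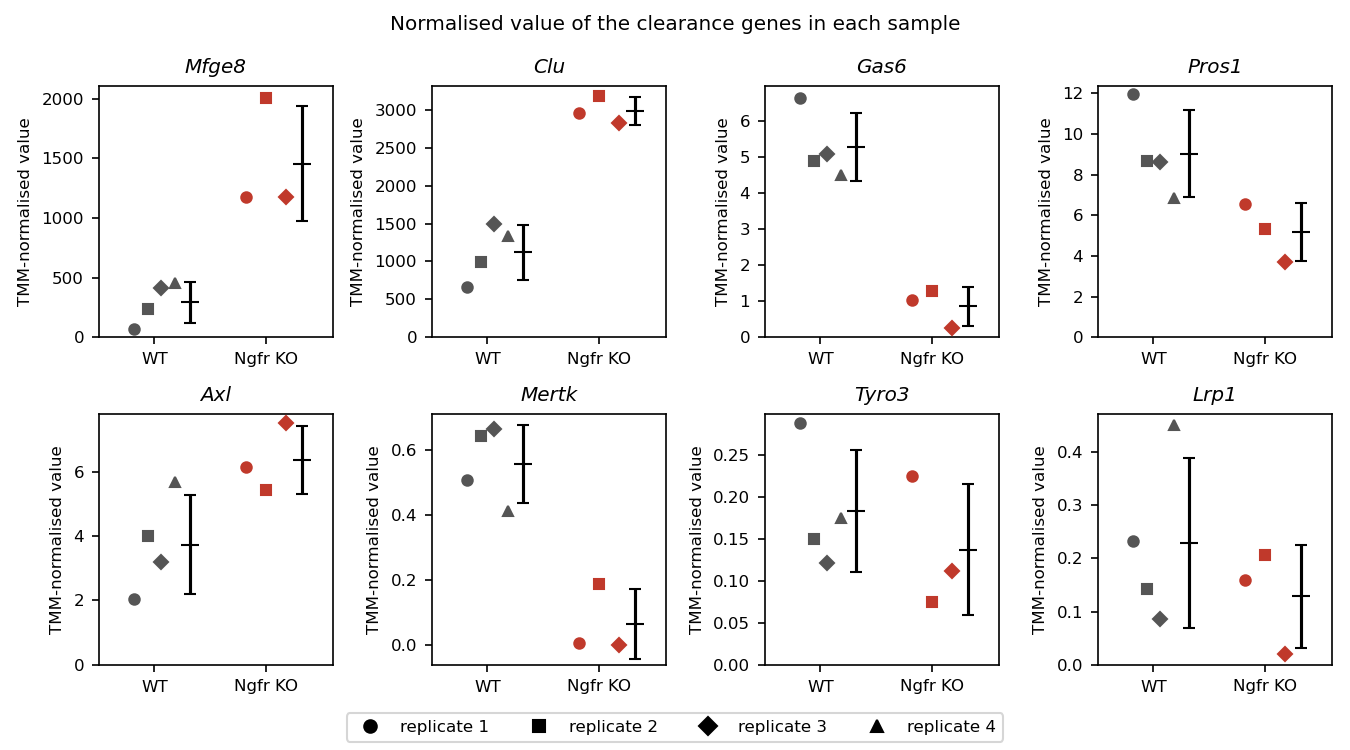
TMM-normalised value (vertical axis, linear, a scale of its own for each gene) of the 8 clearance genes in each WT (grey) and Ngfr KO (red) sample; symbols mark the replicate number, and the bar beside each group is the mean ± SD. Groups are fully apart for Mfge8, Clu, Gas6, Pros1 and Mertk and overlap for Axl, Tyro3 and Lrp1.

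Together Mfge8 and Clu took 1.10% to 2.64% of all reads in WT and 4.76% to 7.12% in Ngfr KO. Divided by exon length in kb, Clu reached 326 ± 106 per kb in WT samples and 870 ± 53 in those of Ngfr KO (mean ± SD, n = 4 and 3). By its mean it ranked 15 in WT and 3 in Ngfr KO among the 21137 genes with an annotated length. Mfge8 had 62.1 ± 37.2 per kb in WT and 309.6 ± 102.5 in Ngfr KO, and its rank was 67 and 14. The per-length ratio of Clu to Mfge8 was 13.04, 5.77, 4.96 and 4.05 in WT replicates 1 to 4 and 3.44, 2.17 and 3.28 in Ngfr KO replicates 1 to 3. Mfge8 therefore made up a larger part of the pair in each Ngfr KO sample than in any WT sample, although the gap between WT replicate 4 and Ngfr KO replicate 1 was small.

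Because FDC markers as a group were higher in Ngfr KO, each gene was also expressed relative to them, as its log2(value + 1) minus the mean log2(value + 1) of the 16 FDC markers, which include none of the 8 genes. That mean was 3.89 in WT replicate 1, 4.80 to 5.05 in the other WT samples and 6.23 to 6.47 in Ngfr KO. On this scale Clu was 5.37 ± 0.16 in WT samples and 5.17 ± 0.13 in those of Ngfr KO (mean ± SD, n = 4 and 3), a difference of -0.20 (exact two-sided permutation test, p = 0.143). Mfge8 was 3.19 ± 0.69 and 4.08 ± 0.38, a difference of 0.89 (exact two-sided permutation test, p = 0.143). The groups overlapped for both genes at this setting, though not at every alternative, and neither was shown to move beyond the FDC markers. Without WT replicate 1 the Mfge8 difference was 0.58. With the FDC marker score as a covariate in limma, the log2 change was -1.13 for Mfge8 and 0.013 for Clu (adjusted p = 0.900 and 0.999), in a fit that called 0 of 8326 genes, with 457 at an unadjusted p-value under 0.05. The 35 ways to split the samples allow no p below 0.0286, and 8 genes were compared in this way.

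Across the 7 samples, the tested genes whose log2 values followed Mfge8 most closely were Dhrs7b, Fh1, Ctsh, Eef1d and Enpp2, with Pearson's r from 0.992 to 0.995. Enpp2, which encodes the lysophospholipid-producing enzyme autotaxin, is also on the FDC list, and Ctsh encodes the lysosomal protease cathepsin H. For Clu they were 4930453N24Rik, Tango2, Tuba1a, Bphl and Gtpbp4, with r from 0.995 to 0.998. The points share the split into 2 genotypes, and these values are a description of 7 samples with no test.

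The TAM ligands moved the other way. Gas6 (chromosome 8, 13465374 to 13494490, minus strand) encodes the vitamin K dependent ligand that activates all TAM receptors. Its value was 6.64, 4.89, 5.07 and 4.49 in WT replicates 1 to 4 and 1.02, 1.28 and 0.248 in Ngfr KO replicates 1 to 3. Every Ngfr KO sample lay far below every WT sample, and Ngfr KO replicate 3 was the lowest. The mean was 5.27 ± 0.94 in WT samples and 0.851 ± 0.538 in those of Ngfr KO (mean ± SD, n = 4 and 3), which made it 6.20-fold lower in Ngfr KO. The log2 change was -1.80 (SE 0.21, 95% interval -2.25 to -1.34, limma adjusted p = 3.15e-04), and edgeR on recovered reads gave -2.53 (adjusted p = 0.00913). Relative to the FDC markers, Gas6 differed by -3.48 (exact two-sided permutation test, p = 0.0286, the lowest this design allows). The mean of the FDC markers itself did not overlap between the groups. Tyro3 and Lrp1, in which no change was called, reached the same p, so this test adds nothing on the fall of Gas6 itself. An opposite-strand gene, Tmem255b, shares 34 exonic bases with Gas6 and had a mean value of 0.0250 in WT.

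Pros1 (chromosome 16, 62854307 to 62929346, plus strand) encodes protein S, an anticoagulant plasma protein and the ligand of Tyro3 and Mertk. Its value was 11.95, 8.70, 8.63 and 6.86 in WT replicates 1 to 4 and 6.54, 5.32 and 3.71 in Ngfr KO replicates 1 to 3. Its groups were apart, but the lowest WT sample and the highest Ngfr KO sample nearly met. Means were 9.04 ± 2.13 (SD, n = 4) and 5.19 ± 1.42 (SD, n = 3), a log2 change of -0.70 (SE 0.21, 95% interval -1.16 to -0.24, limma adjusted p = 0.0235). The call was lost with edgeR on recovered reads (adjusted p = 0.0842) and without a filter (limma adjusted p = 0.0757). It was also lost without WT replicate 1 (limma adjusted p = 0.0617), Ngfr KO replicate 2 (0.0578) or Ngfr KO replicate 3 (0.0772).

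Endothelial cells are a known source of both ligands, and the endothelial markers were lower in Ngfr KO together with them. Their summed value was 175, 136, 158 and 128 in WT replicates 1 to 4 and 53.4, 56.7 and 35 in Ngfr KO replicates 1 to 3. WT replicate 1 had the highest and Ngfr KO replicate 3 the lowest sum, and the same samples had the highest and lowest Gas6 and Pros1 values. With the endothelial marker score as a covariate, the log2 change was 0.39 for Gas6 and 1.51 for Pros1, with limma adjusted p-values of 0.920 and 0.629. The score does not overlap between the genotypes (2.82 to 3.21 in WT, 1.47 to 1.84 in Ngfr KO), and this fit called 0 of 8326 genes, with 656 at an unadjusted p-value under 0.05. The endothelial difference and the genotype cannot be told apart here, and the part of endothelial RNA in the falls of Gas6 and Pros1 was not tested.

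Per kb of exon, Gas6 and Pros1 were nearly equal in WT, at 2.07 ± 0.37 and 2.21 ± 0.52 (SD, n = 4), and did not differ beyond their spread. In Ngfr KO Gas6 was at 0.334 ± 0.211 and Pros1 at 1.27 ± 0.35 (SD, n = 3). The ratio of Gas6 to Pros1 was 0.891, 0.903, 0.943 and 1.05 in WT replicates 1 to 4 and 0.251, 0.387 and 0.107 in Ngfr KO replicates 1 to 3. Gas6 thus lost ground to Pros1 in all 3 Ngfr KO samples. Mfge8 exceeded Gas6 per kb by 5.73 to 54.5 times in WT and by 622 to 2577 times in Ngfr KO.

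**Figure D3:**
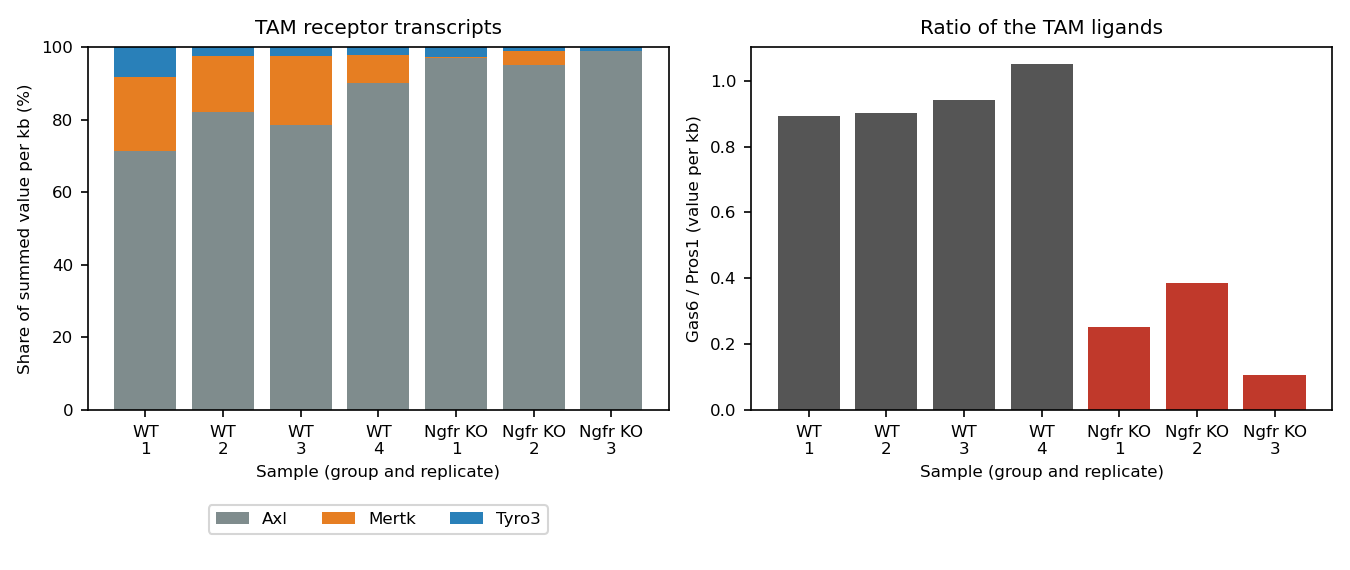
Left, share (%) of Axl, Mertk and Tyro3 in their summed value per kb of exon, by sample; right, ratio of Gas6 to Pros1 value per kb, with WT in grey and Ngfr KO in red. Axl makes up between 71.2% and 90.2% of the receptor transcripts in WT and between 95.1% and 98.8% in Ngfr KO, and the Gas6 to Pros1 ratio is at or above 0.891 in WT and at or below 0.387 in Ngfr KO.

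Among the receptors, Axl (chromosome 7, 25757273 to 25788705, minus strand), a receptor kinase that binds Gas6, was the most abundant per kb of exon in every sample. Its value was 2.04, 4.00, 3.20 and 5.68 in WT replicates 1 to 4 and 6.14, 5.42 and 7.52 in Ngfr KO replicates 1 to 3. The groups overlapped, since WT replicate 4 lay above Ngfr KO replicate 2. Means were 3.73 ± 1.53 (SD, n = 4) and 6.36 ± 1.07 (SD, n = 3), a log2 change of 0.69 (SE 0.23, 95% interval 0.17 to 1.20, limma adjusted p = 0.0406). The call was fragile: it held in only 1 of the 7 fits that left out a sample (that without WT replicate 4), and edgeR on recovered reads gave an adjusted p of 0.0888. Without WT replicate 1 the log2 change was 0.49 (limma adjusted p = 0.0985). The exact two-sided permutation test on log2(value + 1) of all samples gave p = 0.0857. Relative to the FDC markers, Axl differed by -0.996 (exact two-sided permutation test, p = 0.0571): it was lower in each Ngfr KO sample than in any WT sample, but the test did not pass 0.05. The limma estimate was -0.46 with the FDC score and -1.80 with the endothelial score as a covariate (adjusted p = 0.937 and 0.618).

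Mertk (chromosome 2, 128698956 to 128802894, plus strand) encodes the receptor by which macrophages engulf apoptotic cells. WT replicates 1 to 4 held 131, 172, 153 and 108 of its reads, and Ngfr KO replicates 1 to 3 held 2, 56 and 0, so nearly all Mertk reads of that genotype came from replicate 2. Values were 0.510, 0.644, 0.665 and 0.412 in WT and 0.00726, 0.190 and 0 in Ngfr KO, where 3 reads in replicate 3 are worth 0.0120. Means were 0.558 ± 0.119 (SD, n = 4) and 0.0657 ± 0.1076 (SD, n = 3), without overlap. The log2 change on the log2(value + 1) scale was -0.55 (SE 0.14, limma adjusted p = 0.0105, with low genes added to the fit). That scale compresses values below 1: edgeR on recovered reads estimated -2.94 but did not call it (adjusted p = 0.111). The call was also lost without Ngfr KO replicate 1 (limma adjusted p = 0.0529).

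Macrophage markers included genes called in either direction. Of 15 such markers, 13 were in the table and 5 were tested. Of these, 1 was called higher (Lyz2) and 1 lower (Mrc1), against 18.3% and 15.8% of all tested genes. The summed value of the macrophage markers lay between 12.4 and 23.2 for WT and between 15.1 and 43.3 for Ngfr KO. Lyz2 overlapped between the groups, and edgeR called neither it nor Mrc1 (adjusted p = 0.0576 and 0.190). The marker edgeR called was the complement gene C1qb, lower in Ngfr KO (adjusted p = 0.0274). Its value was 0.160, 0.153, 0.139 and 0.0114 (worth 3 reads) in WT replicates 1 to 4 and 0.00363, 0 and 0 in Ngfr KO replicates 1 to 3. Cd68 went the other way, with 0.122 to 0.265 in WT and 0.316, 0.417 and 1.23 in Ngfr KO replicates 1 to 3. Its groups did not overlap, but edgeR did not call it (adjusted p = 0.0567). The pan-macrophage gene Adgre1 was at 0 in 2 WT and 2 Ngfr KO samples and at most 0.112. Mrc1, the mannose receptor, was at 11.0, 10.2, 2.10 and 1.59 in WT replicates 1 to 4 and at 2.17, 1.34 and 0.00400 in Ngfr KO replicates 1 to 3. The part of macrophage or endothelial RNA in the Mertk difference was not tested.

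Tyro3 and Lrp1 were at low levels in all samples. Tyro3 (chromosome 2, 119797733 to 119818104, plus strand), the third TAM receptor, had 28 to 74 reads in WT and 22 to 62 in Ngfr KO. Its value was 0.184 ± 0.073 in WT samples and 0.137 ± 0.078 in those of Ngfr KO (mean ± SD, n = 4 and 3), with a log2 change of -0.06 (95% interval -0.34 to 0.22, limma adjusted p = 0.747). Lrp1 (chromosome 10, 127538161 to 127621148, minus strand), a large endocytic receptor that acts with calreticulin in the uptake of apoptotic cells, had 20 to 118 reads in WT and 5 to 61 in Ngfr KO. Its value was 0.228 ± 0.160 in WT samples and 0.129 ± 0.097 in those of Ngfr KO (mean ± SD, n = 4 and 3), with a log2 change of -0.12 (95% interval -0.43 to 0.20, limma adjusted p = 0.549). Both genes overlapped between the groups. By edgeR on recovered reads the estimates were -0.35 (adjusted p = 0.769) and -0.72 (adjusted p = 0.618), so no difference in either was shown. Relative to the FDC markers, Tyro3, Lrp1, Mertk and Pros1 differed by -1.74, -1.80, -2.23 and -2.38 (exact two-sided permutation test, p = 0.0286 each); for genes near 0 this difference mostly carries the rise of the markers.

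**Figure D4:**
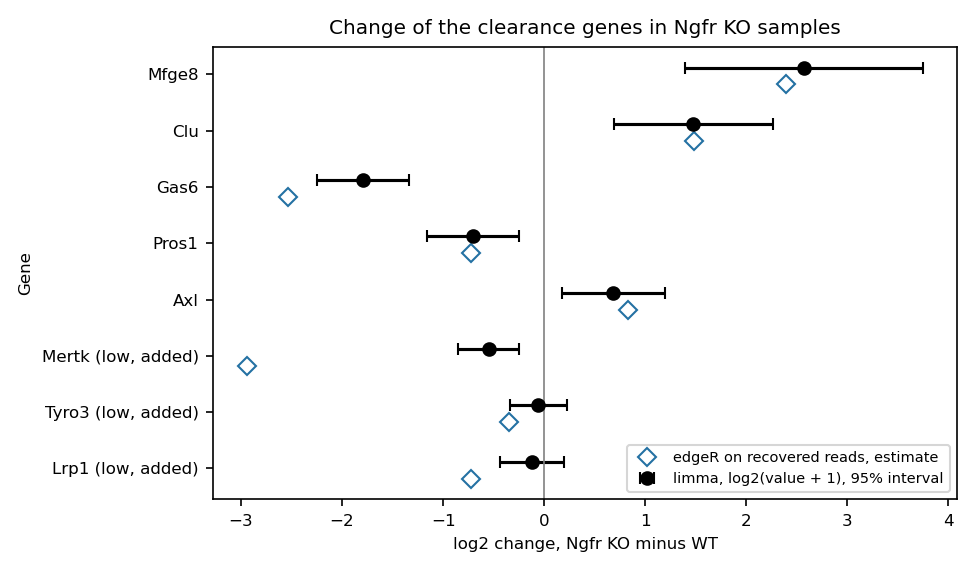
Log2 change in Ngfr KO against WT (horizontal axis) for each of the 8 genes (vertical axis); black points are limma estimates on log2(value + 1) with 95% intervals, open blue diamonds edgeR estimates on recovered reads. Mfge8, Clu and Axl lie right of 0 and Gas6, Pros1 and Mertk left of it; for Mertk the estimates are -0.55 and -2.94.

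Per kb of exon, the mean levels in WT fell in the order Clu, Mfge8, Pros1, Gas6, Axl, Mertk, Tyro3 and Lrp1. Of these neighbours, Pros1 and Gas6 had overlapping samples, as did Tyro3 and Lrp1. In Ngfr KO the order was Clu, Mfge8, Pros1, Axl, Gas6, Tyro3, Mertk and Lrp1. Pros1 and Axl were there at nearly the same level, 1.27 ± 0.35 and 1.26 ± 0.21 per kb (SD, n = 3), and the samples of neighbours among the last 3 genes overlapped. The share of Mertk among the TAM receptor transcripts lay between 7.59% and 20.6% in WT and between 0% and 3.87% in Ngfr KO. The 3 receptors summed to 0.900 ± 0.286 per kb in WT and 1.30 ± 0.19 in Ngfr KO, with groups that overlapped.

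The other genes of the clearance pathway changed in both directions. Of 119 listed genes beside the 8, 79 were tested, of which 18 were called higher and 19 lower, with a median log2 change of -0.15, against 0.02 over all tested genes. Limma called 18.3% of all tested genes higher and 15.8% lower, and these shares are the background for its calls in each list that follows. The edgeR test on recovered reads called 18 higher and 13 lower of 104, against 8.67% and 6.55% of all genes it tested. Without WT replicate 1, limma called 10 of the 79 higher and 14 lower, and calls over all genes fell as well, to 12.9% higher and 10.4% lower.

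Mfge8 is recognised by the integrins αvβ3 and αvβ5. The αv subunit gene Itgav rose from 7.03 ± 1.19 in WT samples to 11.4 ± 2.2 in those of Ngfr KO (mean ± SD, n = 4 and 3), a log2 change of 0.63 (limma adjusted p = 0.0217), and its groups did not overlap. The β3 subunit gene Itgb3 fell, with 2.87, 2.71, 2.45 and 1.21 in WT replicates 1 to 4 and 1.32, 1.32 and 0.605 in Ngfr KO replicates 1 to 3. Its groups overlapped, its log2 change was -0.66 (limma adjusted p = 0.0329), and edgeR on recovered reads did not call it (adjusted p = 0.0952). The β5 gene Itgb5 was at 0.0662 or less in every sample.

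Of the 12 tested receptors for phosphatidylserine and scavenger receptors, 3 were called higher and 6 lower by limma, with a median log2 change of -0.63. On recovered reads edgeR called 3 higher and 3 lower of 12, against 8.67% and 6.55% of all genes it tested. Stabilin genes Stab1 and Stab2, scavenger receptors of sinusoidal and lymphatic endothelium, fell by 1.66 and 2.16 on the log2 scale, and Cd36, a fatty acid and lipid receptor, by 1.93 (limma adjusted p = 3.15e-04, 0.00759 and 0.00264). Stab2 was not called by edgeR (adjusted p = 0.0651). Cd14, a co-receptor for lipopolysaccharide that also tethers apoptotic cells, rose from 1.57 ± 0.37 to 7.31 ± 3.85 (log2 change 1.61, limma adjusted p = 9.83e-04). Ager, the receptor for advanced glycation end products, rose by 1.58 (limma adjusted p = 0.00198). Msr1, a macrophage and endothelial scavenger receptor, had a log2 change of -0.77 (limma adjusted p = 0.0412) with overlapping groups, and edgeR did not call it (adjusted p = 0.0836). Timd4, which encodes the phosphatidylserine receptor TIM-4, had a log2 change of 0.26 and the scavenger receptor gene Marco one of -1.95, and neither was called (limma adjusted p = 0.501 and 0.0756). The endothelial sums given above were lower in the same Ngfr KO samples as the stabilins and Cd36; the part of endothelial RNA in these falls was not tested.

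Among 5 tested bridging proteins and opsonins, 2 were called higher and none lower, with a median log2 change of 0.24. Calr, which encodes calreticulin, an eat-me signal bound by Lrp1, rose from 25.0 ± 6.5 to 45.5 ± 13.6 (log2 change 0.83, limma adjusted p = 0.0228). Anxa1, a phosphatidylserine-binding annexin, had a log2 change of 1.07 (limma adjusted p = 0.0228) with overlapping samples and no call by edgeR (adjusted p = 0.0823). Anxa5 and the complement gene C3 were not called (limma adjusted p = 0.354 and 0.279). The C1q chain genes, made mainly by macrophages, were at 0.16 or less in every sample.

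In the list of Lrp1 relatives and partners, 9 genes were tested, 2 were called higher and 1 lower, and the median log2 change was -0.19. The lower gene was Apoe, a lipid carrier taken up through this receptor family, with 95.7, 117, 91.5 and 89.0 in WT replicates 1 to 4 and 55.0, 57.5 and 36.3 in Ngfr KO replicates 1 to 3. All Ngfr KO samples were below all WT samples (log2 change -0.99, limma adjusted p = 0.00634). Lrpap1, the chaperone of Lrp1 in the secretory pathway, rose by 0.55 (limma adjusted p = 0.0257). App, the amyloid precursor gene, was not called (limma adjusted p = 0.0598).

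The engulfment machinery had 11 tested genes, of which 2 were called higher and 5 lower, with a median log2 change of -0.27. The GTPase gene Rac1 and its activators Elmo1, Dock1 and Vav3 fell by 0.98, 0.84, 0.55 and 1.09 on the log2 scale (limma adjusted p from 8.85e-04 to 0.0232); edgeR did not call Dock1 (adjusted p = 0.0546). Abca1, a cholesterol exporter, fell by 0.75 (limma adjusted p = 0.0126). Rhog and Cdc42, also genes of small GTPases, rose by 1.06 and 0.54 (limma adjusted p = 0.00215 and 0.0418). The adaptor gene Crk and the kinase gene Ptk2 were not called (limma adjusted p = 0.173 and 0.350). These genes act in many other processes of cell shape and movement.

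**Figure D5:**
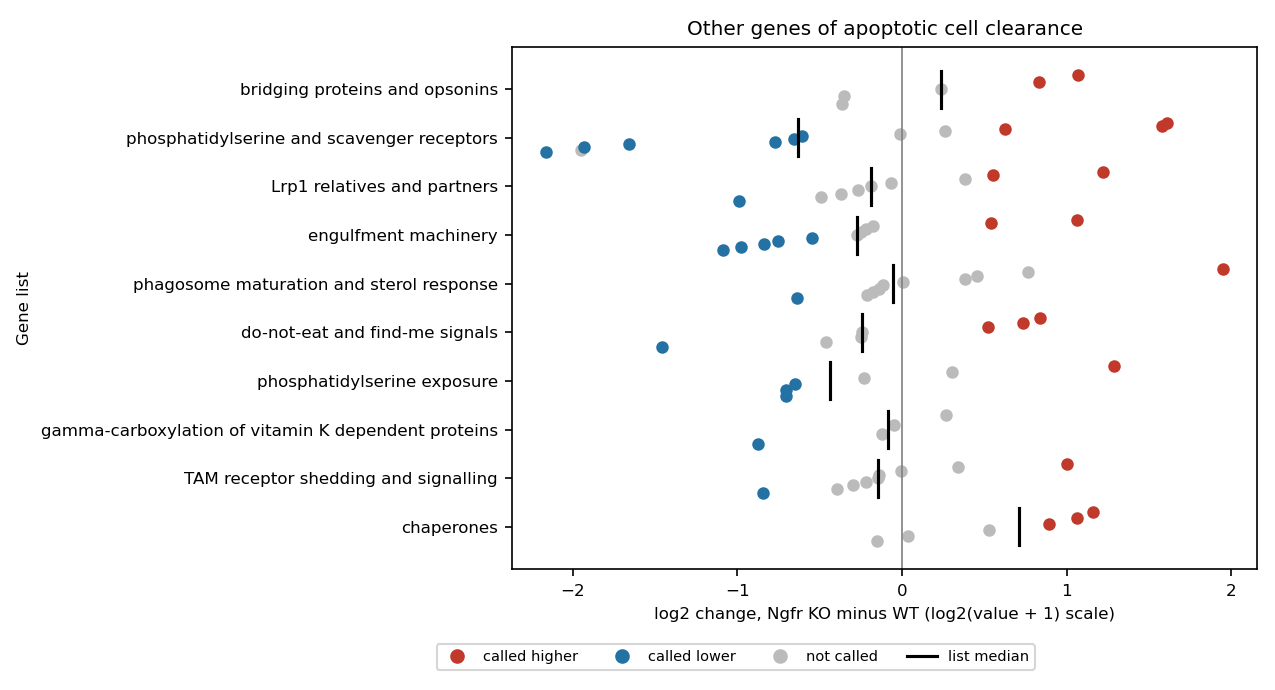
Log2 change in Ngfr KO against WT (horizontal axis) of the tested genes in 10 lists of clearance genes (vertical axis); each point is a gene, red called higher, blue called lower, grey not called, and the black line is the list's median. Most lists hold calls on both sides of 0, and the chaperones have a median of 0.71 with no gene called lower.

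Of 10 tested genes of phagosome maturation and the sterol response, 1 was called in each direction, with a median log2 change of -0.05. Ucp2, a mitochondrial carrier linked to the uptake capacity of phagocytes, rose from 3.59 ± 1.40 to 16.6 ± 6.0 (log2 change 1.95, limma adjusted p = 6.77e-04), and the nuclear receptor gene Pparg had a log2 change of -0.64 (limma adjusted p = 0.0323) that edgeR did not call (adjusted p = 0.158). The abundant cathepsin genes Ctsl and Ctsd were not called (limma adjusted p = 0.550 and 0.0535). Of 7 tested do-not-eat and find-me genes, 3 were called higher and 1 lower. Panx1, the channel that releases nucleotides from dying cells, Sphk1, a sphingosine kinase, and Cd47, the do-not-eat signal, rose by 0.84, 0.73 and 0.52 (limma adjusted p = 0.00632, 0.0251 and 0.0497); edgeR did not call Sphk1 (adjusted p = 0.0653). The lower gene was the endothelial adhesion gene Pecam1, with a log2 change of -1.46 (limma adjusted p = 5.11e-04). Sirpa, the receptor of Cd47, and S1pr1, a sphingosine 1-phosphate receptor, were not called (limma adjusted p = 0.282 and 0.0636).

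Of 6 tested genes that control phosphatidylserine exposure, 1 was called higher and 3 lower, with a median log2 change of -0.44. Plscr1, an interferon-inducible scramblase-family gene, rose by 1.29 (limma adjusted p = 0.00289). The scramblase gene Ano6 and the flippase gene Atp8a1 both fell by 0.71 (limma adjusted p = 0.0133 and 0.0146). Tmem30a, the flippase subunit gene, and Atp11a were not called (limma adjusted p = 0.317 and 0.354). Gas6 and Pros1 need gamma-carboxylation, and the genes of that step, Ggcx, Vkorc1 and Vkorc1l1, were not called (limma adjusted p from 0.205 to 0.837). The quinone reductase gene Nqo1, the only other gene of that list, fell by 0.88 (limma adjusted p = 0.00650).

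Of 9 tested genes of TAM receptor shedding and signalling, 1 was called higher and 1 lower, with a median log2 change of -0.14. The feedback inhibitor gene Socs3 had a log2 change of -0.84 (limma adjusted p = 0.0302) with overlapping groups, and edgeR did not call it (adjusted p = 0.0906). The sheddase genes Adam10 and Adam17, whose products cut TAM receptors from the surface, and the actin-binding gene Twf1 were not called (limma adjusted p = 0.594, 0.345 and 0.509). Of 6 tested chaperones, which work mainly in the endoplasmic reticulum rather than outside the cell as clusterin does, 3 were called higher and none lower, with a median log2 change of 0.71, against 18.3% and 15.8% of all tested genes. The endoplasmic reticulum genes Pdia3, Sdf2l1 and Hspa5 rose by 1.16, 1.06 and 0.89 (limma adjusted p = 0.00709, 0.0224 and 0.0116), and Hsp90b1 had 58.8 ± 6.5 in WT and 85.4 ± 10.5 in Ngfr KO and was not called (limma adjusted p = 0.0560), nor was Canx (0.906). With edgeR on recovered reads Sdf2l1 was not called (adjusted p = 0.0697) and Hsp90b1 was (adjusted p = 0.0439).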

How the data were processed

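The authors deposited 1 table of TMM-normalised signal per gene and sample, per the name they gave the deposited table. The build mm10 and bcl2fastq 2.20.0.422 are named per the submitters' processing notes; the aligner, counting program and annotation are not given in the sources used here. cDNA was amplified with SMART-Seq v4 and libraries made with Nextera XT, per the labels' protocols, which name no molecular identifiers; reads are not independent molecules, and floors cover counting error only. Within 0.1 read, 100% of the values in every sample were whole multiples of 1 step, so reads were recovered by division. A value of 1 is worth 230.1 to 294.8 reads. The lowest read sum of a gene in the table is 3.

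Ngfr KO was compared with WT by limma 3.58.1 (R 4.3.3, eBayes with trend) on log2(value + 1) over the 8326 genes that reach a value of 1 in 3 or more samples, with Benjamini-Hochberg adjustment and calls under 0.05. This pseudocount understates the change of low genes. Mertk, Tyro3, Lrp1 and Ngfr were fitted with these 4 added. The edgeR quasi-likelihood test (4.0.16) on recovered reads was an alternative; it called 2551 of 16751 genes (15.2%) against 2844 by limma. Single values were compared by exact permutation over 35 splits. Lengths are merged exons of GENCODE M21, matched for 21137 of 21176 identifiers; 39 were not matched.

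The genes, lists and marker sets were chosen with earlier results of these data known. Genes named are the 8, Ngfr, and in each list up to 4 called genes with the largest change in each direction and up to 2 abundant genes not called; the genes most like Mfge8 and Clu are the 5 with the highest Pearson's r. Dock1, Itgb3, Itgb5, Vkorc1l1, the C1q genes, Adgre1, Cd68, Lyz2, Mrc1, Dcn, Ccl19, Ccl21a, Adam17 and Tmem255b were named beyond that rule. Some genes that the rule names are not reported here, though the lists' counts include them. Other alternatives were pseudocounts of 0.1 and 5, no filter, a filter at 10, quantile and median ratio scaling, robust eBayes, the replicate number as a block, marker scores as covariates and leaving out each sample; thinned reads were added after the data were seen. On simulated data with 200 genes changed 4-fold, limma, testing 8212 genes, recovered 96.5%, and 6.31% of its 206 calls were false. There edgeR, testing 16882, recovered 98%, and 2.97% of its 202 calls were false. Limma called 2844 genes in the real comparison, and Pros1 and Axl changed by less than 4-fold, so these rates need not hold for them.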

Additional observations from a re-analysis of the deposited data

Results flagged for a closer look

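In 28 sets of 4 WT values, the gap between the highest or lowest sample and its neighbour was compared with the group's range by Dixon's criterion; 3 were large, where chance gives 1.4. The share of Tyro3 among TAM receptor transcripts reached 8.15% in WT replicate 1, while the others of that group lay between 2.26% and 2.49%, a gap of 0.96 of the range; that sample had 74 Tyro3 reads. The summed reticular stroma markers were 231 in WT replicate 4 and 97.3 to 109 in the others (0.912 of the range). Ccl21a, also on the lymphatic endothelium list, was at 73.5 in WT replicate 4 and at 6.81 to 16.9 in the other WT samples. Dcn and Ccl19 were also at their highest WT value in WT replicate 4 (69.3 and 52.6). The summed B-cell markers were 193 in WT replicate 3 and 25.5 to 38.6 in the others (0.922 of the range). The immunoglobulin gene Igkc alone was at 180 in WT replicate 3 and at 9.52 to 15.4 in the other WT samples. No other B-cell marker was highest in WT replicate 3, so the gap lay in that gene.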

How the results depend on the processing

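Clu, Gas6 and Mfge8 were called in all 7 fits that left out 1 sample, with log2 changes of 1.25 to 1.64, -1.97 to -1.53 and 1.995 to 2.88. Pros1 was called in 4 of them (-0.86 to -0.52), Mertk in 6 (-0.63 to -0.51) and Axl in 1 (0.49 to 0.87). Over all genes these fits called 1614 to 3006, against 2844; the filter at 10, which tests fewer genes, called 535. Without a filter Mfge8 (2.57), Clu (1.48), Pros1 (-0.70) and Axl (0.69) were not called. Axl was also not called with the filter at 10 (0.69) or quantile normalization (0.61). With edgeR on recovered or thinned reads, Pros1 (-0.72 and -0.71), Axl (0.83 and 0.81) and Mertk (-2.94 and -3.10) were not called. Gas6 was called under every alternative but the covariate fits.

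With the FDC score as a covariate limma called 0 of 8326 genes (457 at an unadjusted p under 0.05), and with the endothelial score 0 (656); edgeR was not run with covariates. Estimates under the FDC and the endothelial score were -1.13 and -0.71 for Mfge8, 0.013 and 0.39 for Clu, -1.17 and 0.39 for Gas6, 0.21 and 1.51 for Pros1, -0.46 and -1.80 for Axl, and -0.64 and -0.21 for Mertk. Both scores differ between the genotypes without overlap, and the cause of these shifts was not tested. Relative to the FDC markers, Axl differed by -1.05 with a pseudocount of 5 (exact p = 0.0286) and Lrp1 by -2.31 with 0.1 (exact p = 0.0571). On that scale the Mfge8 groups did not overlap with a pseudocount of 5 (difference 1.10, exact p = 0.0857). Nor did they without WT replicate 4 (1.09) or Ngfr KO replicate 3 (1.05). The Clu groups did not overlap without WT replicate 2 (-0.276).

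With the replicate block 2717 genes were called. The log2 changes were 2.88 for Mfge8, 1.58 for Clu, -1.86 for Gas6, -0.81 for Pros1, 0.87 for Axl and -0.60 for Mertk, all called. WT replicate 4 has no Ngfr KO sample of its number, so the block takes it out of the comparison. These log2 changes equal those of the fit without WT replicate 4 and are no separate check. Deviations of same-numbered samples correlated across genes at 0.298, -0.0593 and -0.0108. Differently numbered samples gave -0.2 to 0.111, so the pair of replicates 1 had the highest value and the others lay within that range. These values do not settle whether the numbers pair the samples.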
